A study of Mus musculus with 24 samples.

Results

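The 46 genes described here are cyclins, cyclin-dependent kinases (CDKs), E2F and pocket proteins, DNA replication factors and mitosis genes, chosen by name from the 55471 gene rows of the count tables and followed over 24 RNA-seq libraries of mouse embryonic fibroblasts (MEFs). They comprise 5 D-type cyclins and their kinases, 4 genes of the E- and A-type cyclins and Cdk2, and 7 E2F and pocket protein genes. A further 9 are origin licensing genes, 4 serve the replication clamp and nucleotide synthesis, and 4 are late-cycle transcription factors, topoisomerase and Ki-67. The last 13 are 6 genes of Cdk1, B-type cyclins and mitotic kinases, 4 of the spindle checkpoint and anaphase-promoting complex, and 3 coding for survivin and mitotic motors. All 46 passed the filter on low counts, which left 17522 genes in the tests.

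The cells were 3T3 MEFs, an immortalised line, in 4 genotypes: wild type (WT), lacking the kinase LKB1 (LKB1 KO, gene Stk11), and 2 LKB1/CRTC2 double knockouts, clones A1 and A2. The clones were derived from the LKB1 KO cells by CRISPR-Cas9 editing of Crtc2, which codes for a CREB coactivator restrained by kinases downstream of LKB1, so LKB1 loss is shared by 3 of the 4 genotypes. Each clone descends from 1 cell and each genotype is 1 line, so the effect of a deletion and of what else sets a line apart cannot be told apart. Every genotype was sequenced untreated and after 6 h with the inflammatory cytokine IL-1β (0.1 ng/mL), with 3 libraries in each of the 8 groups. The labels do not say whether replicates were separate cultures, so p-values measure the spread between these libraries, which may be technical.

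In the textbook cycle, mitogens induce D-type cyclins, which activate Cdk4 and Cdk6 to phosphorylate the retinoblastoma protein and its relatives, the pocket proteins. Released E2F factors then switch on cyclin E, nucleotide synthesis and the licensing machinery that loads the MCM helicase onto origins. Later, cyclin A and cyclin B with Cdk1, FoxM1 and B-Myb drive mitosis, and ubiquitin ligases dismantle the mitotic regulators. In fibroblasts the D-type cyclins are the step closest to growth factor signalling, while most later genes oscillate with the cycle and are high wherever cells divide.

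Libraries held 38842901 to 48594394 counts on genes. Replicate 1 stood apart in all 8 groups. Its chi-square per degree of freedom over genes was 37.7 to 106 against replicates 2 and 3, which were at 7.41 to 18.6 against each other. Counts naming no gene were 29.9 to 34.4% of replicate 1, above both other libraries in 8 of 8 groups, and 26.7 to 30.0% of replicates 2 and 3. Main counts are therefore also given for replicates 2 and 3 only, an alternative added after the data were seen. Stk11 averaged 86.0 ± 1.68 CPM (a library's counts scaled to a common total; SD, n = 3) in untreated WT and 17.3 ± 1.24 in LKB1 KO, and Crtc2 averaged 81.1 ± 1.80 in LKB1 KO against 42.9 ± 2.11 in A1 and 49.8 ± 0.864 in A2. Untreated WT held 58.4 ± 2.44 CPM of Crtc2, below LKB1 KO and above both clones. Stk11 and Crtc2 transcripts were lower where labelled deleted but were not absent, and gene counts do not show the edit itself. The 8 fibroblast markers, of which Thy1 was under 1 CPM in every library, summed to 3428 to 7582 CPM, against at most 0.447 CPM for the 4 epithelial, 3.80 for the 3 endothelial and 6.82 for the 3 leukocyte markers. The fibroblast marker S100a4 was low as well, averaging 2.26 CPM in untreated WT, 0.906 in LKB1 KO, 0.731 in A1 and 0.637 in A2. Single fibroblast markers moved with genotype. Pdgfra averaged 4.58 CPM in untreated WT, 342 in LKB1 KO, 246 in A1 and 358 in A2, and Col1a2 780, 63.0, 246 and 128. The part of these markers in the results was not tested. In bulk libraries a different share of cells in a phase and a different amount of RNA per cell cannot be told apart.

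The first comparison asked how untreated LKB1 KO MEFs differed from WT. Cyclin D2 fell farthest of all 46 genes, and cyclin D1, Cdk6 and E2f7 fell by more than 1 on the log2 scale. E2f1 and Rb1 rose by 1.02 and 0.98, and the licensing, replication and mitosis genes lay between -0.46 and 0.64. In edgeR's quasi-likelihood test at a false discovery rate (FDR) under 0.05, 14 members were higher and 11 lower, where 30.1% of all genes were called higher and 25.8% lower. That is 54.3% of the members against 55.9% of all genes, so the share is close to the background and is no result about these genes. The median log2 fold change of the members was 0.10 and that of all genes 0.04. Under upper quartile normalization the split became 24 higher and 11 lower, where 34.6% of all genes were then higher and 22.3% lower, and that scaling put the median of all genes at 0.12. Replicates 2 and 3 only gave 19 higher and 12 lower (31.9% and 27.3% of all genes), with 0 of the 25 calls lost and 6 added. With the replicate block 20 members were higher and 12 lower, where 34.3% of all genes were higher and 30.0% lower. The counts by role that follow cover 3 to 9 genes each and are to be read against these shares. Only 5 members passed 1 on the log2 scale in either direction, Ccnd2, Ccnd1, Cdk6, E2f7 and E2f1, and 35 members stayed under 0.5.

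**Figure D1:**
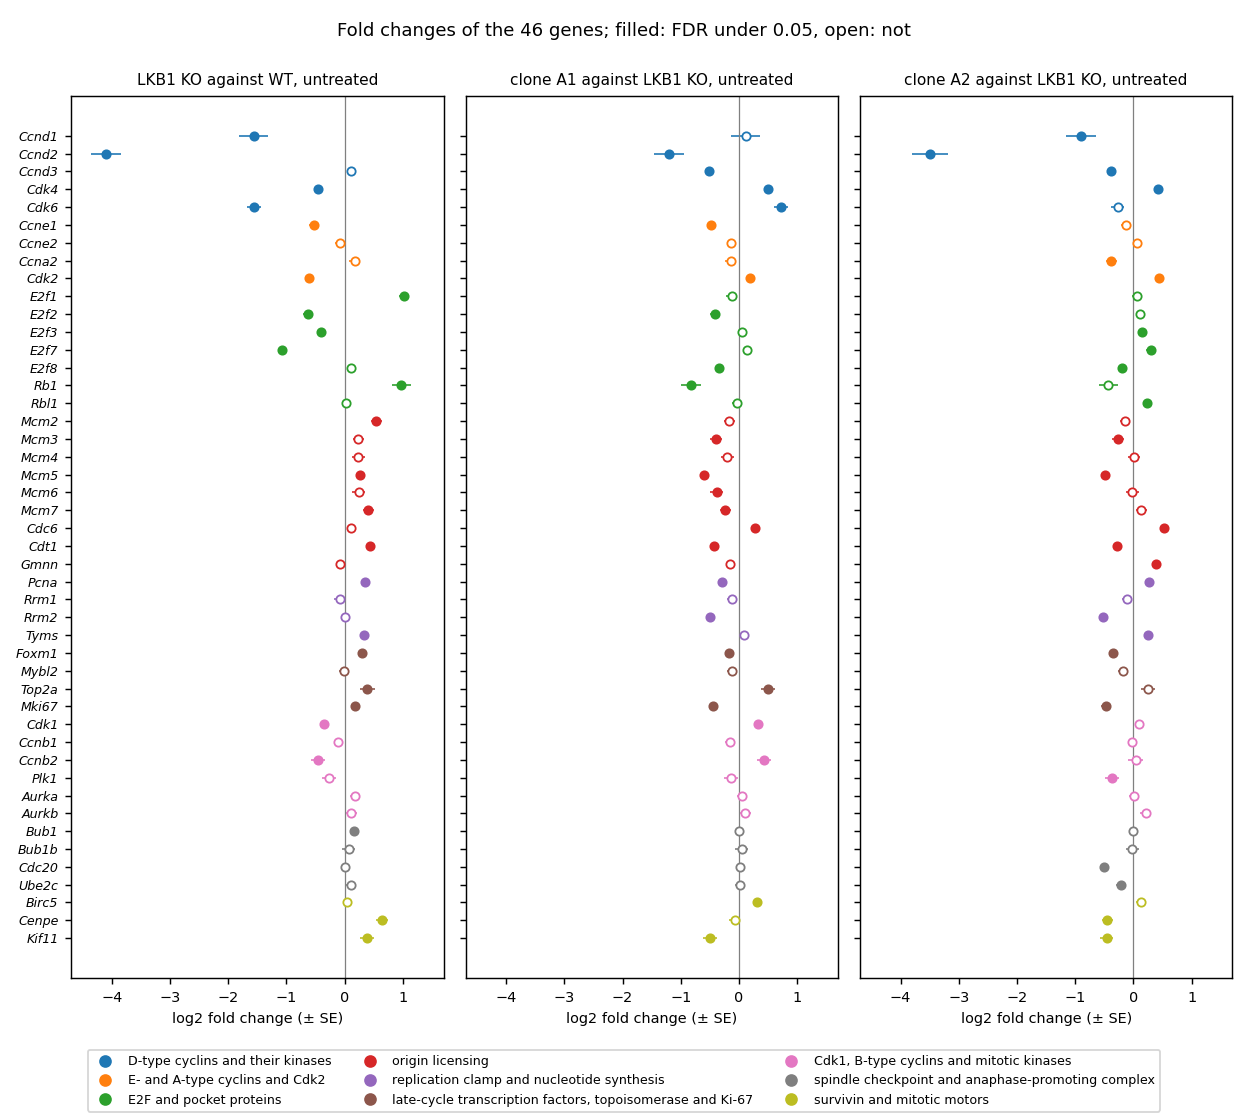
Log2 fold changes (± SE) of the 46 genes, coloured by role, for untreated LKB1 KO against WT and for each untreated clone against LKB1 KO, with 3 libraries a group. Filled points passed an FDR of 0.05. Ccnd2 lay lowest in all 3 panels, at -4.10, -1.20 and -3.50, while most licensing, replication and mitosis genes lay within 0.5 of zero.

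Ccnd2 codes for cyclin D2 (chromosome 6, 127125162 to 127152193, minus strand, GRCm38). It measured 258, 251 and 246 CPM in the 3 untreated WT libraries and 16.7, 13.1 and 14.4 CPM in LKB1 KO. The A1 libraries held 7.66, 5.78 and 5.72 CPM, and the A2 libraries 1.65, 0.926 and 1.28 CPM, the latter from 40 to 82 counts. No library of one untreated genotype overlapped another, and the order was WT, LKB1 KO, A1 and A2. Relative to WT, Ccnd2 fell in LKB1 KO by 4.10 ± 0.26 on the log2 scale (SE; FDR 2.03e-11, edgeR). It fell again relative to LKB1 KO, with a log2 fold change of -1.20 ± 0.26 in A1 (FDR 0.000958) and -3.50 ± 0.31 in A2 (FDR 4.21e-08). With IL-1β the same order held, at 252 ± 5.27 CPM in WT, 15.8 ± 0.421 in LKB1 KO, 6.65 ± 0.460 in A1 and 2.31 ± 1.91 in A2. In the last group replicate 1 stood apart, at 4.5 CPM against 1.49 and 0.955.

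Cyclin D1, the gene Ccnd1 (chromosome 7, 144929931 to 144939925, minus strand), links growth factor signalling to Cdk4 and Cdk6. Untreated WT libraries held 333, 323 and 330 CPM, LKB1 KO 143, 92.0 and 98.4, A1 148, 101 and 112, and A2 86.8, 47.3 and 44.3. WT was above every other library, A2 was below them, and LKB1 KO and A1 overlapped. Ccnd1 fell in LKB1 KO with a log2 fold change of -1.56 ± 0.25 (FDR 2e-05, edgeR). A1 differed from LKB1 KO by 0.11 ± 0.25 (FDR 0.771), while A2 was lower by -0.90 ± 0.25 (FDR 0.00869). The A2 call was lost without LKB1 KO replicate 1 (-0.65), without A2 replicate 2 (-0.74) or 3 (-0.70), and with only those groups in the fit.

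The remaining D-type cyclin, Ccnd3, did not fall with Ccnd1 and Ccnd2 in LKB1 KO against WT. Ccnd3 held 72.2, 71.3 and 75.1 CPM in untreated WT, 78.3, 78.0 and 79.7 in LKB1 KO, 54.8, 53.8 and 55.7 in A1, and 55.4, 62.5 and 63.0 in A2. Its log2 fold change in LKB1 KO was 0.11 ± 0.07 (FDR 0.168), although with the replicate number as a block it passed the test (FDR 0.0405), as it did under upper quartile normalization. It fell in both clones against LKB1 KO, by 0.52 on the log2 scale in A1 (FDR 3.15e-06) and by 0.38 in A2 (FDR 0.000139, edgeR). The genes of its chromosome, 17, had a median of -0.38 in A1 and 0.07 in A2, which leaves -0.15 and -0.45 for Ccnd3 less that median; the part of the chromosome was not tested. Per kilobase of exon, Ccnd3 averaged 8.31 CPM in untreated WT, below Ccnd1 at 69.8 and Ccnd2 at 26.8. In untreated A2, Ccnd3 at 6.87 CPM per kilobase was above Ccnd2 at 0.137 and below Ccnd1 at 12.6.

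The partner kinases split. Cdk6 measured 318, 316 and 301 CPM in untreated WT, 97.6, 115 and 104 in LKB1 KO, 149, 191 and 183 in A1, and 87.0, 94.9 and 79.8 in A2. It fell in LKB1 KO by 1.56 ± 0.12 on the log2 scale (FDR 4.24e-10) and was higher in A1 than in LKB1 KO by 0.72 ± 0.12 (FDR 6.31e-05), leaving A1 between WT and LKB1 KO. In A2 the log2 fold change against LKB1 KO was -0.27 ± 0.12 (FDR 0.0857, or 0.00685 with the replicate block and 0.00562 in replicates 2 and 3 only). Cdk4, the most abundant member per kilobase over all groups at 156 CPM, moved less, from 543 ± 3.66 CPM in WT to 394 ± 17.2 in LKB1 KO, 557 ± 18.3 in A1 and 530 ± 23.6 in A2. It fell in LKB1 KO by 0.46 on the log2 scale (FDR 1.13e-07) and was above LKB1 KO by 0.50 in A1 (FDR 2.14e-07) and 0.43 in A2 (FDR 2.03e-06, edgeR).

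**Figure D2:**
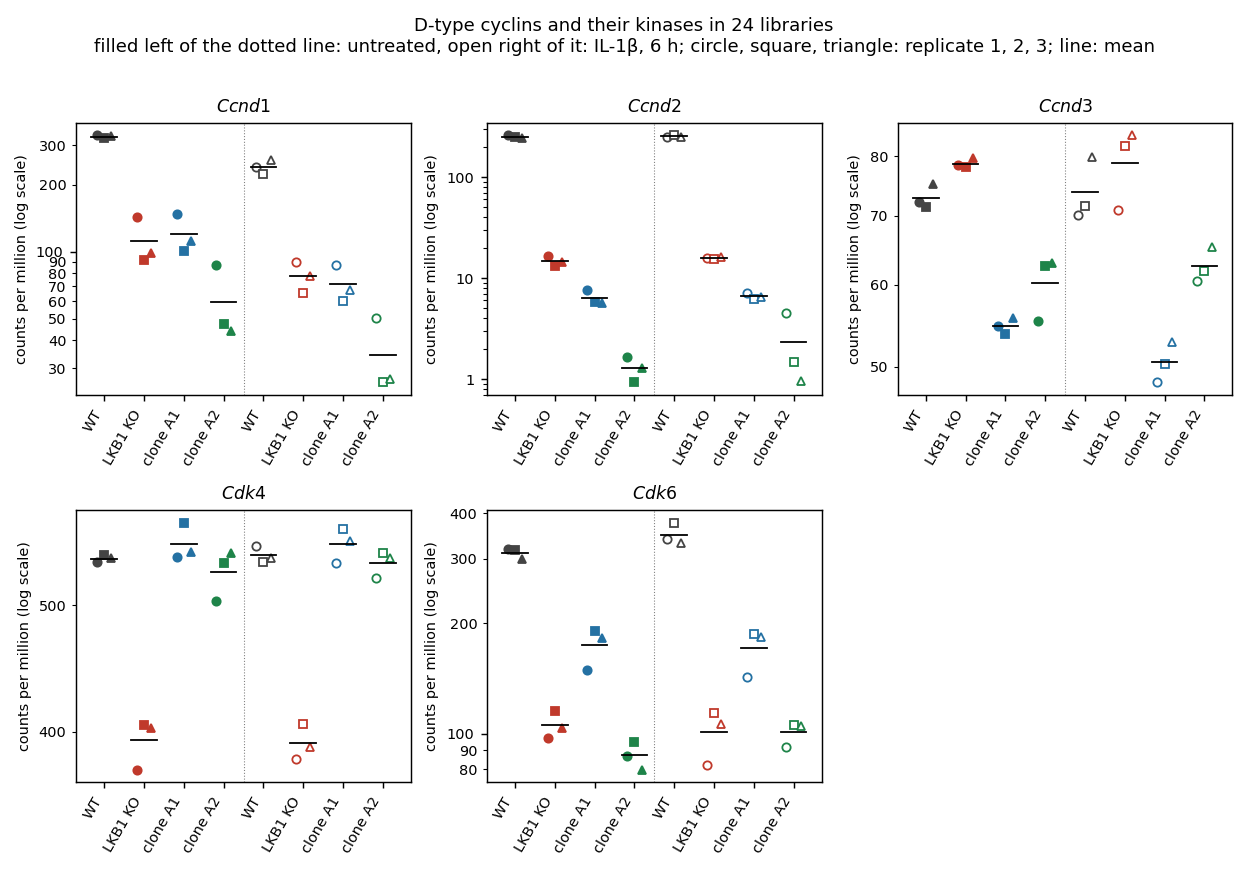
CPM on log axes of the 3 D-type cyclins, Cdk4 and Cdk6 in each of the 24 libraries, by genotype, untreated to the left of each dotted line and IL-1β to the right, with a bar at each mean. Ccnd2 stepped down from 252 CPM in WT to 1.28 CPM in untreated A2, whereas Ccnd3 and Cdk4 kept to ranges of under 2-fold.

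Of the E- and A-type cyclins and their kinase, which carry cells into and through DNA synthesis, 2 of 4 fell in untreated LKB1 KO and none rose. Cdk2 held 108, 107 and 109 CPM in WT and 71.7, 71.8 and 69.3 in LKB1 KO, or -0.61 ± 0.06 on the log2 scale (FDR 1.18e-08, edgeR). The 2 groups did not overlap, and A1 at 81.0 ± 5.42 CPM and A2 at 96.3 ± 3.69 lay between them. Cyclin E1 (Ccne1) fell by 0.53 on the log2 scale (FDR 1.21e-05). Ccne2 and cyclin A2 (Ccna2) were not called, at -0.09 and 0.18, but Ccna2 was called higher with the replicate block (FDR 0.0225) and in replicates 2 and 3 only (FDR 0.0168), where Ccne2 was called lower (FDR 0.0362).

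The E2F and pocket protein genes moved in opposing directions in LKB1 KO, 2 of 7 higher and 3 lower. E2f1, an activator of S-phase genes, rose from 36.1, 36.3 and 37.5 CPM in untreated WT to 73.7, 75.1 and 73.4 in LKB1 KO, or by 1.02 ± 0.09 (FDR 3.55e-09). It stayed high in both clones, at 67.8 ± 3.63 CPM in A1 and 77.6 ± 10.2 in A2, and neither clone differed from LKB1 KO by the test (FDR 0.292 and 0.62). Rb1, which codes for the retinoblastoma protein, rose from 25.6, 29.6 and 33.3 CPM to 50.03, 60.7 and 63.1 (0.98 ± 0.17, FDR 3.92e-05, edgeR).

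The repressor E2f7 went the other way, from 158, 152 and 148 CPM in WT to 70.6, 74.9 and 72.9 in LKB1 KO (-1.07 ± 0.07, FDR 3.84e-11, edgeR). It was at 80.3 ± 2.67 CPM in A1, not called against LKB1 KO (0.14, FDR 0.131, or 0.0426 and higher with the replicate block, and likewise called in replicates 2 and 3 only), and at 89.2 ± 11.2 in A2, where it was higher than in LKB1 KO by 0.29 (FDR 0.00292). The activators E2f2 and E2f3 were lower by 0.63 and 0.41 on the log2 scale (FDR 6.99e-07 and 8.04e-07). The repressor E2f8 and the pocket protein gene Rbl1 were not called, at 0.10 and 0.03.

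Among origin licensing genes, 4 of 9 were higher in untreated LKB1 KO and none lower, with a median log2 fold change of 0.24; 44.4% were called, against 55.9% of all genes. Mcm2, a subunit of the replicative helicase, rose from 232, 242 and 238 CPM to 339, 353 and 346 (0.54 ± 0.09, FDR 2.92e-05, edgeR), with no overlap. Mcm5, Mcm7 and the loading factor Cdt1 rose by 0.26, 0.41 and 0.44 on the log2 scale. The other Mcm genes, Mcm3, Mcm4 and Mcm6, had log2 fold changes of 0.23 to 0.24 that missed the threshold (FDR 0.0501, 0.076 and 0.0735) but were called higher with the replicate block and in replicates 2 and 3 only. The loader Cdc6 and the licensing inhibitor geminin (Gmnn) were at 0.11 and -0.08. In the replication group, Pcna, the sliding clamp, went from 154, 173 and 185 CPM to 218, 216 and 220 (0.35 ± 0.07, FDR 0.000101), and thymidylate synthase (Tyms) rose by 0.34. The ribonucleotide reductase genes Rrm1 and Rrm2 were at -0.09 and 0.01.

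Later genes were mixed. Of the late-cycle group, 3 of 4 rose. Top2a, the topoisomerase that untangles sister chromatids, went from 631, 629 and 631 CPM to 745, 835 and 897 (0.39 ± 0.12, FDR 0.0111, edgeR), a call lost without LKB1 KO replicate 3 (0.27). Foxm1 rose by 0.30, and Mki67, the gene for the Ki-67 proliferation antigen, by 0.18 (FDR 0.0426), a call lost without WT replicate 1 or 3 or any 1 of the LKB1 KO libraries; its value ran from 0.08 to 0.25 over all alternatives. Mybl2, coding for B-Myb, was at -0.01.

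Of the mitotic kinase group, 2 of 6 fell and none rose, or 33.3% called against 55.9% of all genes, while with the replicate block 3 were lower and 1 higher. Cyclin B2 (Ccnb2) went from 143, 160 and 166 CPM to 98.5, 109 and 134 (-0.46 ± 0.13, FDR 0.00377) and Cdk1 fell by 0.35, while Ccnb1, Plk1, Aurka and Aurkb were not called, at -0.27 to 0.18. The genes that the block added were Plk1, lower (FDR 0.000419), and Aurka, higher (FDR 0.0148), of which replicates 2 and 3 only added Aurka. In the spindle checkpoint and anaphase-promoting group only the checkpoint kinase Bub1 was called, from 162, 165 and 160 CPM to 175, 179 and 192 (0.17 ± 0.06, FDR 0.0312, edgeR). That call was lost without any 1 of the 6 libraries compared, at 0.07 to 0.18. The kinetochore motor Cenpe rose from 236, 230 and 224 CPM to 328, 361 and 389 (0.64 ± 0.10, FDR 7.58e-06), Kif11, a spindle motor, rose by 0.39 (0.26 and not called without LKB1 KO replicate 3), and survivin (Birc5) was at 0.05.

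**Figure D3:**
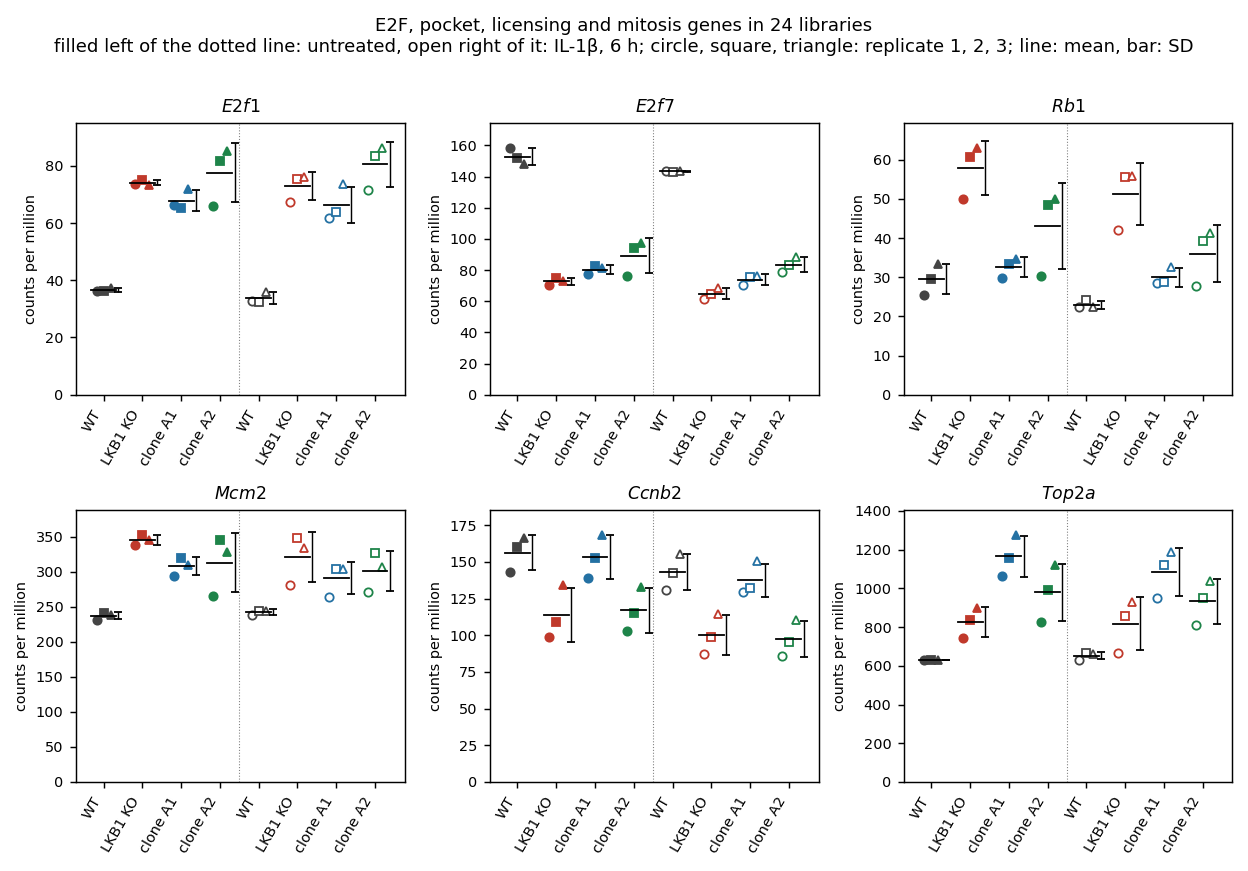
CPM of 6 members of later roles in each of the 24 libraries, by genotype, untreated to the left of each dotted line and IL-1β to the right, with lines at means and bars of 1 SD. E2f1 sat above and E2f7 below their WT libraries in all 3 other genotypes, while Mcm2, Ccnb2 and Top2a differed by smaller steps.

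The promoters of these genes show what the roles share beyond their values. Of the 46 members, 37 were in a RefSeq promoter table (GRCm38.p6, 250 bases before to 50 after the start), with 41 starts. Ccnd1, Ccnd2, Ccne2, Ccna2, Rb1, Mcm4, Gmnn, Foxm1 and Aurkb had no entry and were not searched for any motif. An E2F site (TTTCCCGC, TTTGGCGC, TTTCGCGC or TTTGCCGC, on either strand) was in 12 of the 37 genes, 32.4%, against 2.60% of the 27025 genes of the table. By role it was in 6 of 7 licensing genes and 4 of 6 E2F and pocket genes. Of the 2 genes with an entry among the E- and A-type cyclins and Cdk2, it was in Cdk2 and not in Ccne1. It was in 1 of 5 mitotic kinase genes, Cdk1. It was in none of the genes with an entry in the other 5 roles, 3 of the D-type cyclins and kinases, 4 of the replication clamp and nucleotide synthesis, 3 late-cycle, 4 checkpoint and 3 motor and survivin genes. The cell cycle genes homology region (CHR, TTTGAA) was in 37.8% of member genes against 20.2% of all. The CCAAT box, counted as CCAAT on either strand, was in 73.0% against 41.1%. The CHR was in 4 of 5 mitotic kinase genes, 3 of 4 checkpoint, 2 of 3 late-cycle, 3 of 6 E2F and pocket, 1 of 3 motor and survivin and 1 of 7 licensing genes, and in none of the other 3 roles. CCAAT was in all 9 mitotic kinase and checkpoint genes and in at least 1 gene of every role. The cAMP response element (CRE, TGACGTCA), bound by the CREB family with which CRTC2 acts, was added to the search later and was in 2 member genes, Mcm5 and Cenpe, 5.41% against 2.03%. Overlapping matches were each counted, and a match describes letters and not binding.

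Promoters of 2 licensing genes and 2 mitosis genes are shown as examples of these layouts, with Tyms beside them for its response to IL-1β. Each is written 5′ to 3′ on the gene's strand, with all matches to the 4 motifs in capitals. Mcm5 (chr8:75109259-75109558, plus strand) holds 2 overlapping E2F matches, the CRE and 3 CCAAT boxes, and Mcm6 (chr1:128359656-128359955, minus) 3 E2F matches and 2 CCAAT boxes. Ccnb2 (chr9:70421505-70421804, minus) holds 2 CHR and 3 CCAAT matches, and Top2a (chr11:99024140-99024439, minus) 2 and 6. Tyms (chr5:30073576-30073875, minus) holds none of the 4 in this window.
Mcm5: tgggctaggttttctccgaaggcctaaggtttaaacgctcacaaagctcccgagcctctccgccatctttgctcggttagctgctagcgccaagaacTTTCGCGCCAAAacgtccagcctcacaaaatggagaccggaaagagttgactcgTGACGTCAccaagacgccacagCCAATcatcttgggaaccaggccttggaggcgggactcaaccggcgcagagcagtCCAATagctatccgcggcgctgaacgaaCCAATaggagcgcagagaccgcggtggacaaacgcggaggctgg
Mcm6: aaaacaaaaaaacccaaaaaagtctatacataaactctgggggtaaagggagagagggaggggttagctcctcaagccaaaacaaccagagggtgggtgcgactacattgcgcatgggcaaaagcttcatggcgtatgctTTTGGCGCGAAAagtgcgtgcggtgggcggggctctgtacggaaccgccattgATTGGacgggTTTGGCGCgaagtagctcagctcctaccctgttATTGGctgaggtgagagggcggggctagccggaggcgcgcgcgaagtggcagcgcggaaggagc
Ccnb2: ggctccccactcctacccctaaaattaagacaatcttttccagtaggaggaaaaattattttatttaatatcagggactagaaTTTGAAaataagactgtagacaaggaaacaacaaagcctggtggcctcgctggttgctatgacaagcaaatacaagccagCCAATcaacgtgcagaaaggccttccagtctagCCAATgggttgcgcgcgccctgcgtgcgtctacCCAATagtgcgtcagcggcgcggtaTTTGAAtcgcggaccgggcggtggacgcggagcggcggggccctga
Top2a: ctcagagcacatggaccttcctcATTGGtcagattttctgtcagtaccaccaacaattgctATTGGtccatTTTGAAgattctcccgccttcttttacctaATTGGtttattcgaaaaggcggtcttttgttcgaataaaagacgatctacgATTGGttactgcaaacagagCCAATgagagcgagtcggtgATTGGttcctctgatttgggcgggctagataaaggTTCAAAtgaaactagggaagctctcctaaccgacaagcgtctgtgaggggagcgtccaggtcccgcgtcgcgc
Tyms: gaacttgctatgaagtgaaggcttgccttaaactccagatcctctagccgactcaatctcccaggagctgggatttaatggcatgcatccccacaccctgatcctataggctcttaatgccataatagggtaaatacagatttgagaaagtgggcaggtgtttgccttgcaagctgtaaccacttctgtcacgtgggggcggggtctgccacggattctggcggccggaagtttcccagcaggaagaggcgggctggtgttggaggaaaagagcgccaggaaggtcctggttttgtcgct

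**Figure D4:**
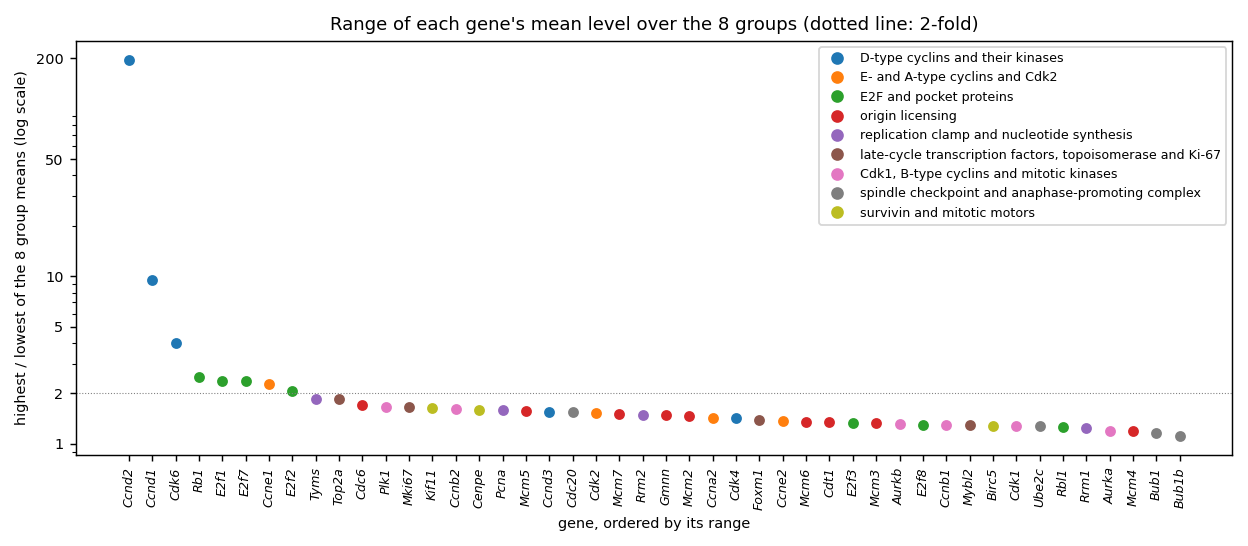
Ratio of the highest to the lowest of the 8 group means of CPM for each of the 46 genes, on a log axis, ordered by size and coloured by role. Ccnd2 (196-fold), Ccnd1 (9.55-fold) and Cdk6 (4.0-fold) led, and 38 genes stayed under 2-fold.

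Over all 8 groups, ranges were widest for a pair of D-type cyclins and Cdk6. The highest group mean of Ccnd2 was 196 times the lowest, that of Ccnd1 9.55 times and that of Cdk6 4.0 times. The next 5 were Rb1 at 2.53, E2f1 at 2.38, E2f7 at 2.36, Ccne1 at 2.27 and E2f2 at 2.08. The other 38 members stayed under 2-fold, 24 of them under 1.5-fold, with a median of 1.49 over the 46. Bub1b and Bub1 had the narrowest ranges, at 1.12 and 1.16.

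Position moved with some of these results. Cdk1, Cdk2, Cdk4 and E2f7 lie on chromosome 10, where the median over the 814 genes tested was -0.44 in untreated LKB1 KO against WT. All 4 were called lower there, with and without IL-1β. Less the chromosome's median, their untreated values were 0.09 for Cdk1, -0.17 for Cdk2, -0.02 for Cdk4 and -0.63 for E2f7. Against LKB1 KO, chromosome 10 stood at 0.39 in untreated A1 and 0.27 in A2, and 3 of the 4 were called higher in each clone. The remaining 42 members gave 14 higher and 7 lower in LKB1 KO, 50% called against 55.9% of all genes (30.1% higher and 25.8% lower). Only chromosome 10 was set aside in this count, and chromosomes with raised medians, such as 17 at 0.26, were kept.

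Other chromosomes stood off zero as well. Of 20 chromosomes, the median over their genes lay beyond 0.3 on the log2 scale in either direction for 2 in untreated LKB1 KO against WT, for 5 in A1 against LKB1 KO and for 3 in A2 against LKB1 KO. In A1 chromosome 8 was at -0.37, and less that median Mcm5 was at -0.23 and Cdt1 at -0.07. Chromosome 11 was at 0.29 there, which leaves -0.01 for Cdc6, 0.21 for Top2a and 0.02 for Birc5. Ccnb2 on chromosome 9 (0.32) was at 0.10 after the same step, and Kif11 on chromosome 19 (-0.35) at -0.15. In A2, chromosome 8 at -0.31 leaves -0.18 for Mcm5, chromosome 11 at 0.34 leaves 0.18 for Cdc6, chromosome 13 at 0.19 leaves 0.20 for geminin and chromosome 19 at -0.31 leaves -0.15 for Kif11. Of the 5 members past 1 in LKB1 KO against WT, Ccnd2 was at -4.32 less its chromosome's median, Ccnd1 at -1.38, Cdk6 at -1.73, E2f7 at -0.63 and E2f1 at 0.87. The 3 largest in A1, Ccnd2, Rb1 and Cdk6, were at -1.11, -0.85 and 0.70, and the 3 largest in A2, Ccnd2, Ccnd1 and Rrm2, at -3.50, -0.96 and -0.38. The part of the chromosomes in these values was not tested.

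With IL-1β present in both genotypes, LKB1 KO differed from WT in 28 members, 15 higher and 13 lower, 60.9% against a background of 57.4% of all genes (30.2% higher and 27.1% lower). Of the 25 members called untreated, 24 were called again in the same direction in these separate libraries, 13 higher and 11 lower. That is 96% of them, where 89.2% of the 9798 genes called untreated were. Upper quartile normalization gave 25 higher and 12 lower (35.7% and 22.7% of all genes) and put the median of all genes at 0.14 in place of 0.03. Unstranded counts gave 9 higher and 16 lower (25.1% and 26.9% of all genes), and replicates 2 and 3 only 21 and 11 (31.7% and 28.6%).

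The clones were compared with LKB1 KO to ask what further loss of CRTC2 changed. Both contrasts share the LKB1 KO libraries. The background covers all 17522 genes tested, of which 9369 had a mean log2 CPM above 3. Members were not matched to it by abundance, and the part of abundance in their share of calls was not tested. In untreated A1, 8 members were higher and 16 lower, 52.2% where 35.3% of all genes were called (18.9% higher and 16.4% lower). In untreated A2, 9 were higher and 16 lower, 54.3% against 32.3% (17.1% and 15.1%). With IL-1β the counts were 9 and 17 in A1 (background 36.7%, or 19.4% and 17.3%) and 10 and 15 in A2 (background 32.8%, or 17.1% and 15.8%). Replicates 2 and 3 only gave 9 and 19 in untreated A1 (21.3% and 18.9% of all genes) and 10 and 18 in untreated A2 (21.7% and 17.5%). Medians were small, at -0.13 in untreated A1 and -0.02 in A2, against 0.02 over all genes in A1. Without the members on chromosome 10 the medians were -0.14 in A1 and -0.12 in A2. Of the members only Ccnd2 passed 1 on the log2 scale in the untreated clones.

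In A1 the changes after Ccnd2 were led by Rb1 and Cdk6. Rb1 fell from 50.03, 60.7 and 63.1 CPM in LKB1 KO to 29.9, 33.4 and 34.7 (-0.83 ± 0.17, FDR 0.000534, edgeR), where WT held 29.5 ± 3.85. In A2, at 30.3, 48.6 and 50.1 CPM, replicate 1 stood apart from the other two and the difference missed the threshold (-0.43, FDR 0.0518) but passed with the replicate block (FDR 0.000309) and in replicates 2 and 3 only (-0.33, FDR 0.00201). Of the licensing genes 5 of 9 were lower and 1 higher, where 16.4% and 18.9% of all genes were: Mcm5 fell by 0.60 on the log2 scale, Cdt1 by 0.44, Mcm3 by 0.39, Mcm6 by 0.38 and Mcm7 by 0.23. The Mcm6 call was lost without A1 replicate 1, and the Mcm7 call (FDR 0.0496) without any 1 of the libraries compared. Cdc6 rose by 0.28. The changes of Mcm5, Cdt1 and Cdc6 went the way of the medians of their chromosomes, 8 and 11, given above. None of the 4 checkpoint and anaphase-promoting genes was called in A1, by edgeR, with the replicate block or at an unadjusted p under 0.05. In the same order, 35.3%, 48.1% and 43.3% of all genes passed, and 4 genes are too few to read against these shares.

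In A2 the next in size after Ccnd2 and Ccnd1 was Rrm2, the small subunit of ribonucleotide reductase, which fell from 444, 416 and 418 CPM in LKB1 KO to 286, 301 and 305 (-0.52 ± 0.06, FDR 9.98e-07, edgeR). The 2 groups did not overlap. In A1 it was at 297, 299 and 307 CPM, or -0.50 on the log2 scale (FDR 1.12e-06). Cdc6 rose by 0.52 (FDR 1.24e-06) and geminin by 0.38, and Mcm5 fell by 0.49, each in the direction of its chromosome's median given above. Cdc20, the activator of the anaphase-promoting complex, fell by 0.51 (FDR 1.46e-06), where its log2 fold change in A1 was 0.02. Mki67 fell by 0.45 in A1 and 0.48 in A2 (FDR 4.74e-05 and 3.01e-05), to 648 ± 29.6 and 635 ± 47.3 CPM from 885 ± 19.5.

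The 2 clones differed from each other. Against A1, untreated A2 had 11 members higher and 9 lower, 43.5% where 32.5% of all genes were called (15.8% higher and 16.7% lower), and 20 higher and 13 lower with the replicate block, under which 23.1% of all genes were higher and 23.1% lower. Replicates 2 and 3 only gave 19 and 12 (21.2% and 19.5%). Ccnd2 was lower in A2 by 2.30 ± 0.32 on the log2 scale (FDR 1.21e-05), Ccnd1 by 1.02 ± 0.25 (FDR 0.00372) and Cdk6 by 1.00 ± 0.12 (FDR 1.96e-06, edgeR). Pcna was higher by 0.55, E2f2 and geminin by 0.54, and Cdc20 lower by 0.54. Against WT, A1 had 10 members higher and 18 lower (background 55.4%, or 30.3% and 25.1%) and A2 13 and 16 (background 60.6%, or 32.7% and 27.9%). Upper quartile normalization made these 17 and 15 in A1 (35.1% and 21.5% of all genes), and 18 and 15 in A2 (36.6% and 24.6%). Replicates 2 and 3 only gave 13 and 20 in A1 (31.7% and 26.4%), and 17 and 18 in A2 (34.3% and 29.1%).

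The response to IL-1β was small in these genes. After 6 h, no member was called in WT or A1, 3 were called in LKB1 KO and 1 in A2, where 2.26%, 1.99%, 4.74% and 5.68% of all genes were called. Of all genes, 1.53% were higher and 0.731% lower in WT, 1.2% and 0.788% in A1, 2.65% and 2.09% in LKB1 KO, and 2.81% and 2.86% in A2. At an unadjusted p under 0.05, edgeR gave 3 members in WT and 4 in A1 (11.4% and 10.7% of all genes), and DESeq2 called 0 and 1 (3.56% and 3.12% of all genes). With the replicate number as a block, 3 members were called in WT, 8 in LKB1 KO, 3 in A1 and 8 in A2, where 9.3%, 14.8%, 9.61% and 17.9% of all genes were. Replicates 2 and 3 only gave 3, 5, 2 and 10 members, where 5.28%, 8.79%, 5.15% and 14.6% of all genes were called. Members shared the same libraries, so counts over members are not independent.

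Thymidylate synthase makes the thymidine nucleotide needed for DNA. Tyms rose in LKB1 KO from 133, 129 and 130 CPM to 172, 178 and 167 (0.40 ± 0.05, FDR 1.85e-05, edgeR) and in A2 from 162, 153 and 151 to 176, 197 and 198 (0.30 ± 0.05, FDR 0.000546). In WT it was 101, 105 and 105 CPM untreated and 106, 101 and 101 with IL-1β (FDR 1), and in A1 142, 135 and 140 against 146, 146 and 150 (0.09 ± 0.05, FDR 0.603). Treated and untreated libraries did not overlap in LKB1 KO, A1 or A2 and did overlap in WT. The response in LKB1 KO exceeded that in WT by 0.41 ± 0.07 (FDR 0.0096), the only member called in that test of the difference (background 0.245%, with 0.137% higher and 0.108% lower), and it was called in every alternative run. The A1 response was below that of LKB1 KO by 0.31 ± 0.07 (FDR 0.389, or 0.0408 with the replicate block). The A2 call was lost with only the groups compared in the fit.

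Ccne2, coding for cyclin E2, rose in LKB1 KO from 126, 116 and 115 CPM to 165, 143 and 135 (0.31 ± 0.08, FDR 0.0169, edgeR), and Mki67 fell from 863, 898 and 895 to 663, 768 and 768 (-0.27 ± 0.07, FDR 0.0289). The groups did not overlap for either gene. Both calls were lost without LKB1 KO IL-1β replicate 1 (0.23 and -0.20), without untreated replicate 2 (0.29 and -0.26) and with only the groups compared, and that of Ccne2 also without untreated replicate 3 (0.29) and under upper quartile normalization (0.33). Neither differed between LKB1 KO and WT in the test of the responses (FDR 0.536 and 0.91), although with the replicate block Ccne2 did (FDR 0.0399).

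**Figure D5:**
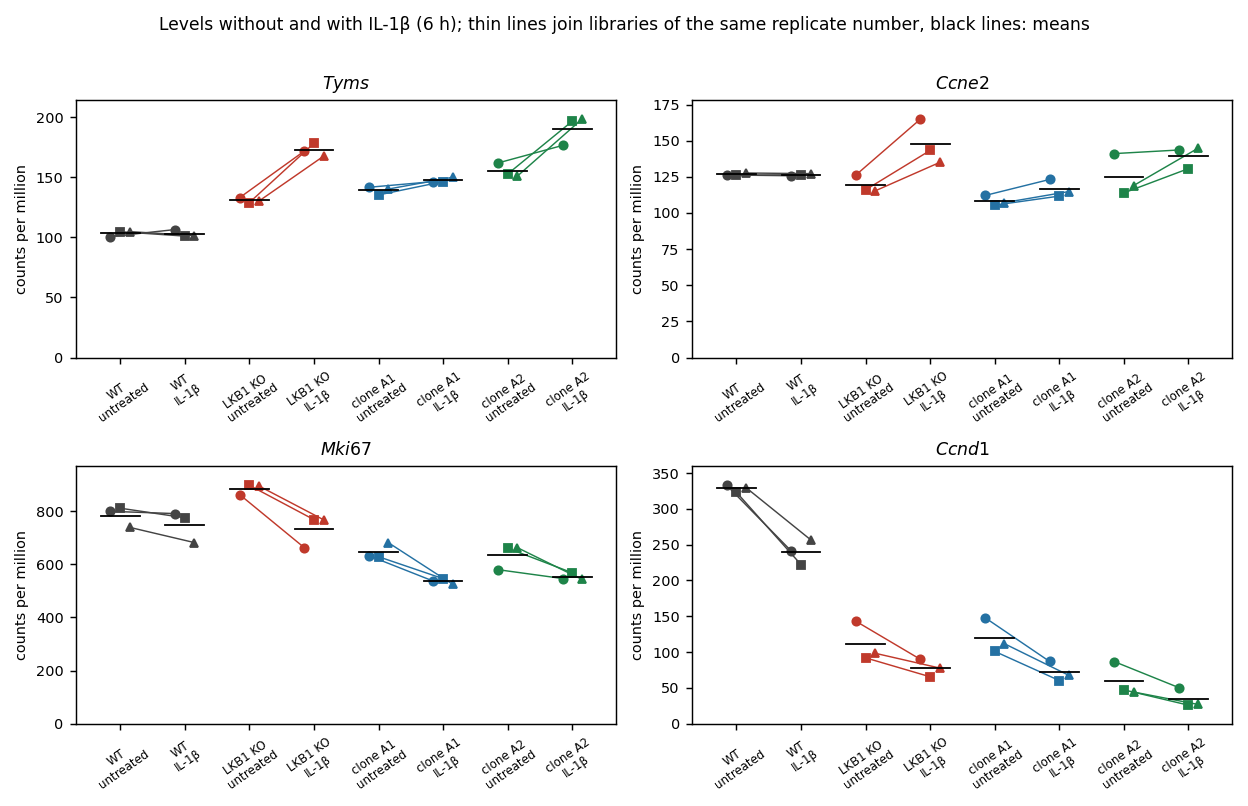
CPM of Tyms, Ccne2, Mki67 and Ccnd1 untreated and after 6 h of IL-1β in each genotype, with thin lines joining libraries of the same replicate number and black lines at means. Tyms rose from 131 to 172 CPM in LKB1 KO and was at 103 CPM in WT under both conditions, and Ccnd1 was lower with IL-1β in all 12 joined pairs.

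Ccnd1 was lower with IL-1β in every genotype, with log2 fold changes of -0.45 ± 0.25 in WT, -0.52 ± 0.25 in LKB1 KO, -0.75 ± 0.25 in A1 and -0.79 ± 0.26 in A2. None passed edgeR's test (FDR 0.526, 0.349, 0.177 and 0.0796). With the replicate number as a block all 4 did, at FDR 0.036, 0.0159, 0.00102 and 0.000411, as they did in replicates 2 and 3 only, at FDR 0.00743, 0.00887, 0.000245 and 7.56e-05. In all 12 pairs of libraries with the same genotype and number the treated one was lower, from 333, 323 and 330 CPM to 241, 222 and 257 in WT and from 86.8, 47.3 and 44.3 to 50.5, 25.9 and 26.9 in A2. Differences of this response between genotypes were not called, at -0.06 for LKB1 KO against WT, and -0.23 and -0.27 for A1 and A2 against LKB1 KO. In total 9 members were lower in all 12 pairs: Ccnd1, Ccna2, Rb1, Foxm1, Mki67, Ccnb1, Ccnb2, Ube2c and Kif11. That is 19.6% of the members, where 9.38% of all genes tested were lower in all 12. No member was higher in all 12, as 5.32% of all genes were. With the block Ccnb2 was called lower in LKB1 KO, A1 and A2 (-0.19, -0.16 and -0.27).

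For the difference of IL-1β responses, no member was called in A1 or A2 against LKB1 KO (backgrounds 0.0285% and 0%); at an unadjusted p under 0.05 edgeR gave 1 and 0 (2.47% and 2.21% of all genes), and DESeq2 called 1 and 0 (0.0628% and 0.0514%). Ccnd2 in A2 had a log2 fold change with IL-1β of 0.85 ± 0.35 (FDR 0.199), with replicate 1 of the treated libraries above the other two.

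Replicate numbers left a shared mark on the members. Relative to its group's mean, Ccnd1 in replicate 1 was above by 0.31 on the log2 scale, and in 8 of 8 groups, and Ccnd2 by 0.28 in 6 of 8. Rb1 in replicate 1 was below by 0.22 and Mcm2 by 0.11, each in all 8 groups. The median of the licensing genes in replicate 1 was -0.11 and that of the motor and survivin genes -0.10, while the mitotic kinase group stood at 0.09 in replicate 3. What the numbers stand for is not given in the labels, and its part in these values was not tested.

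The 6 lists of further pathway genes, 114 in all and tested in full, were set beside the members. These genes were likewise not matched to the background by abundance. In untreated LKB1 KO against WT, 60 were higher and 24 lower, 73.7% where 55.9% of all genes were called, with a median of 0.21. Licensing and firing factors had 13 higher and 4 lower of 23, and polymerases and DNA synthesis genes 14 and 5 of 25. Other E2F, DP, pocket and MuvB genes had 4 and 3 of 10. CDK activation and cyclin turnover genes had 4 and 3 of 12, and other mitosis genes 19 and 8 of 37. The 7 CDK inhibitors gave 6 higher and 1 lower. Against LKB1 KO, A1 had 28 higher and 25 lower of the 114 (46.5%, background 35.3%) and A2 21 and 31 (45.6%, background 32.3%), medians -0.05 and -0.06. Among the 37 other mitosis genes, A2 had 1 higher and 16 lower (backgrounds 17.1% and 15.1%), or 3 and 19 with the replicate block (24.5% and 21.4% of all genes). A1 had 7 and 7 (18.9% and 16.4%), or 9 and 14 with the block (25.6% and 22.5%).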

How the data were processed

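RNA was sequenced from 4 genotypes of 3T3 MEFs, untreated or after 6 h of IL-1β. Library preparation is described differently by the labels and the study's methods and is not resolved here. The deposited counts per gene were made by the authors with STAR 2.7.8a after Trim Galore 0.6.0, on GRCm38 with GENCODE annotation. The column for the second strand was used, which held 95.5 to 96.0% of stranded counts. Groups and replicate numbers came from the labels. The 4 lines naming no gene, 26.7 to 34.4% of each column, were left out. Symbols, lengths and coordinates came from GENCODE M21 (55230 of 55471 rows matched).

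All 24 libraries were fitted with 1 coefficient per group in edgeR 4.0.16 (R 4.3.3; filterByExpr with a minimum of 10 counts and a total of 15, TMM, glmQLFit, glmQLFTest), with Benjamini-Hochberg adjustment over 17522 genes and a threshold of 0.05. Errors of fold changes are standard errors. Differences between IL-1β responses were tested as contrasts of contrasts. CPM used TMM-scaled library sizes.

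The 46 members and the pathway lists were chosen with earlier results of these data known. Named genes were, by rule, the D-type cyclins, the largest change in each role between LKB1 KO and WT, the 3 largest between clones and LKB1 KO or each other, and the members called for IL-1β. Any other gene given with values was chosen after its values were seen. No 2 libraries of a group agreed within sampling noise (chi-square per degree of freedom 7.41 or more, and 37.7 or more for pairs with replicate 1).

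Same-numbered libraries deviated together: the correlations of their deviations were 0.0355 to 0.589 over all genes tested, 69 of 84 over 0.1, and 0.238 to 0.819 over the 9369 genes with a mean log2 CPM above 3, all 84 over 0.1. The labels do not say what the number marks, and the numbers were taken as pairing the libraries on the second check. Alternatives were unstranded counts, DESeq2 size factors, upper quartile normalization, the newer quasi-likelihood method, no filter, a stricter filter (10 or more counts in each library), a replicate block, DESeq2 1.42.0, only the groups compared, and each replicate left out. Replicates 2 and 3 only, without replicate 1 of any group, was added after the data were seen (17455 genes tested).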

Additional observations from a re-analysis of the deposited data

Results flagged for a closer look

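The response of Tyms to IL-1β was larger in LKB1 KO than in WT by 0.41 ± 0.07 on the log2 scale (SE; 3 libraries in each of the 4 groups), and this difference of responses was itself tested (FDR 0.0096, edgeR). The responses were 0.40 in LKB1 KO and -0.00 in WT, and the treated library was higher in 3 of 3 pairs in LKB1 KO and 1 of 3 in WT. The difference was called in every alternative run.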

How the results depend on the processing

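Between genotypes, the number of members called stayed within 1.5 times the main count in every alternative but 2: untreated A2 against A1 gave 33 with the replicate block and 31 with replicates 2 and 3 only, in place of 20. No called member changed sign under any alternative. The counts for IL-1β were small and moved more. In WT, with 0 members, no filter gave 2, the block 3, replicates 2 and 3 only 3 and only the groups compared 1. In LKB1 KO, with 3, the block gave 8, replicates 2 and 3 only 5, only the groups compared 1, and leaving out 1 replicate 1 to 3. In A1, with 0, DESeq2 size factors, upper quartile normalization, the newer quasi-likelihood method, no filter, at least 10 counts in every library and DESeq2 each gave 1, the block 3 and replicates 2 and 3 only 2. In A2, with 1, unstranded counts, DESeq2 size factors, the newer quasi-likelihood method, at least 10 counts in every library and DESeq2 each gave 2, no filter 4, the block 8, replicates 2 and 3 only 10, only the groups compared 0, and leaving out 1 replicate 1 to 5. For the difference of responses between LKB1 KO and WT the block gave 2 in place of 1. For A1 against LKB1 KO the block and DESeq2 each gave 1, and for A2 against LKB1 KO no filter gave 1, in place of 0. The cause of these moves was not tested. Over all genes, the block raised IL-1β calls from 396 to 1629 in WT, 831 to 2601 in LKB1 KO, 348 to 1684 in A1 and 995 to 3133 in A2, no filter gave 954, 1428, 908 and 1643, and replicates 2 and 3 only 921, 1534, 899 and 2556. DESeq2 gave 624 in WT and 546 in A1, and only the groups compared 246 in A2. Leaving out 1 library gave 203 to 412 in WT (203 without untreated replicate 2), 544 to 763 in LKB1 KO (544 without untreated replicate 2), 197 to 233 in A1 (197 without untreated replicate 2, and 206 to 227 without any other but untreated replicate 1) and 679 to 1890 in A2 (1890 without untreated replicate 1). For the differences of responses, LKB1 KO against WT went from 43 to 347 without the filter, 311 with the block, 147 with replicates 2 and 3 only, 111 with DESeq2, 76 under upper quartile normalization and 70 both with at least 10 counts per library and with only the groups compared, and to 23 to 57 with 1 library left out (23 without untreated LKB1 KO replicate 2 or 3). A1 against LKB1 KO went from 5 to 141, 36, 10 and 11 in the first 4 of these, with 0 to 4 leaving out 1 library, and A2 against LKB1 KO from 0 to 68, 18, 6 and 9, with 0 to 1. The block changed 7 member calls for untreated LKB1 KO against WT, 5 for A1 and 7 for A2 against LKB1 KO, 3 for A1 and 9 for A2 against WT, and 13 for A2 against A1; with IL-1β it changed 6 for LKB1 KO against WT, and 6 and 4 for A1 and A2 against LKB1 KO.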

Other observations

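The CDK inhibitors hold cyclin and CDK complexes in check. Group levels of all 7 listed had been planned, and Cdkn1c, Cdkn1a and Cdkn1b were chosen for a fuller account after their values were seen. In untreated WT, LKB1 KO, A1 and A2, Cdkn2a averaged 109, 159, 221 and 182 CPM. In the same order Cdkn2b averaged 21.2, 27.7, 47.3 and 27.2, Cdkn2c 93.4, 145, 84.8 and 91.7, and Cdkn2d 16.7, 22.8, 19.4 and 16.3. Cdkn1c, coding for p57, was at 0, 0.0460 and 0 CPM in untreated WT, from 0 to 2 counts, and at 0, 0 and 0.0259 CPM with IL-1β. In untreated LKB1 KO it was at 16.5, 22.0 and 24.2 CPM, in A1 at 20.7, 25.0 and 26.4, and in A2 at 24.4, 41.7 and 43.9. No WT library came near any other. Cdkn1a, coding for p21, went the other way, from 30.2 ± 10.8 CPM (SD, n = 3) in untreated WT to 13.7 ± 1.62 in LKB1 KO, 4.37 ± 0.586 in A1 and 12.6 ± 3.81 in A2. It fell by 1.14 on the log2 scale in LKB1 KO against WT (FDR 0.00021, edgeR) and by 1.65 in A1 against LKB1 KO (FDR 1.96e-05), and was not called in A2 against LKB1 KO (-0.12, FDR 0.749). With IL-1β it was called lower in all 3 comparisons, by 0.53 in LKB1 KO against WT (FDR 0.0486), 1.92 in A1 against LKB1 KO (FDR 2.79e-06) and 0.79 in A2 against LKB1 KO (FDR 0.0112, groups not overlapping), at 25.9 ± 4.15 CPM in WT, 17.9 ± 3.13 in LKB1 KO, 4.71 ± 0.423 in A1 and 10.4 ± 2.26 in A2. Cdkn1b, coding for p27, was at 167 ± 13.1 CPM in WT and 231 ± 21.4 in LKB1 KO (0.47, FDR 0.000103).

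After IL-1β, Cdkn1b was lower by 0.38 on the log2 scale in WT (FDR 0.0175), 0.33 in LKB1 KO (FDR 0.0284) and 0.50 in A2 (FDR 0.00078, edgeR). In A1 the value was -0.30 (FDR 0.0859, or 0.000337 with the replicate block). The WT call was lost without IL-1β replicate 1 or 2 or untreated replicate 2, the LKB1 KO call without IL-1β replicate 1 or 2 or untreated replicate 2 or 3, and the A2 call with only the groups compared. Of the 114 further pathway genes, 3 were called with IL-1β in WT, 5 in LKB1 KO, 2 in A1 and 6 in A2, or 2.63%, 4.39%, 1.75% and 5.26%, where 2.26%, 4.74%, 1.99% and 5.68% of all genes were, so these shares lay near the background. Orc1 and Pole4, named after their values were seen, were called higher in all 4 genotypes. Orc1, the largest subunit of the origin recognition complex, rose from 40.7 ± 1.49 to 58.2 ± 1.71 CPM in WT (0.51, FDR 1.47e-05), and its log2 fold changes in LKB1 KO, A1 and A2 were 0.42, 0.42 and 0.25. Pole4, a small subunit of DNA polymerase epsilon, rose by 0.21 in WT, 0.30 in LKB1 KO, 0.19 in A1 and 0.26 in A2. Whether these responses differed between genotypes was not called for any of the 114 genes (edgeR; the replicate block called 1 for LKB1 KO against WT and 1 for A1 against LKB1 KO).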
